A study of Arabidopsis thaliana with 208 samples.

Results

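AT5G61590 encodes DEWAX (Decrease Wax Biosynthesis), a transcription factor of the ethylene response factor (ERF) family in Arabidopsis thaliana. It is 1 of the 33323 nuclear loci in the count tables and 1 of the 19664 genes that passed a filter on low counts. The gene was chosen by its locus identifier, with its level in each line, its response to nitrate and its loss in the line SALK_015182 already known from these libraries. Those values are therefore given as a description, with no test. AT5G61590 was part of the fit and is among the genes counted over the whole table, but no p-value of its own is given.

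ERF proteins bind DNA through a single AP2/ERF domain, and many of them bind the GCC box, an element of ethylene- and jasmonate-responsive promoters. DEWAX belongs to ERF group IX, which also holds ERF1B and ORA59, activators of defence genes. In Arabidopsis leaves and stems DEWAX is known as a repressor of cuticular wax biosynthesis whose transcript accumulates in the dark. CER1, LACS2, ACLA2, ECR and FAR6 have been reported as genes that it represses in the shoot. Roots carry little cuticular wax, but they use related acyl chains for suberin, the barrier polymer of the endodermis.

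The samples were roots of 9-day-old seedlings, grown with 1 or 10 mM KNO3, from wild-type plants (Col) and from 12 lines with a T-DNA insertion. These were 8 lines of the SALK collection, SALK_015182 with SALK_146141, SALK_100002, SALK_094437C, SALK_085964C, SALK_070847C, SALK_035980 and SALK_012253, together with SAIL_1207_H04 and the GABI lines GABI_868_E02, GABI_699B09 and GABI_513E07. The labels used here do not say which gene each one interrupts. All media held 10 mM KCl and 1% sucrose, so potassium changed together with nitrate and the effects of the 2 ions cannot be told apart. Each of the 26 groups had 4 replicates, each pooled from 2 plates, and every library was sequenced in 2 runs that were summed. Libraries held 3981966 to 13695037 nuclear counts (median 8330750.5), made from tags near the 3′ ends of transcripts by the BRAD-seq method. Levels are CPM, counts scaled to library size with TMM factors, so they compare 1 gene between samples and not genes with each other. In these bulk roots, fewer cells of a type and less RNA per cell cannot be told apart.

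AT5G61590 lies on the minus strand of chromosome 5 as a single-exon gene (chr5:24764256-24765511, RefSeq annotation of assembly TAIR10.1). The 300 bases before its annotated start, chr5:24765512-24765811 read on the minus strand, are shown because transcript level is the quantity described here. The window was searched on both strands for the GCC box (GCCGCC) and the G-box (CACGTG), and would carry them in capitals.
AT5G61590 promoter: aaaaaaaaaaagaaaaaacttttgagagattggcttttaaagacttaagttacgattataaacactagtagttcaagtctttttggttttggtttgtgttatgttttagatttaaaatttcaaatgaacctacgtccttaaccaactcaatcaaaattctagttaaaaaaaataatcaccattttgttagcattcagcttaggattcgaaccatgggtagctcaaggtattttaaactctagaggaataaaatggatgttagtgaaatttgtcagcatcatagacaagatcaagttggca

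Neither motif was in this window. The GCC box was in 2.24% of the 26711 promoter windows of the same length, and the G-box in 7.18%. None of the 5 reported DEWAX targets had a GCC box in its window, and none of 24 other cuticular wax genes had one. It was in the windows of 2 of the other 16 group IX genes, ORA59 and ERF15, and of 3 of 9 jasmonate and ethylene defence genes. The following 30-base stretches show it in capitals for both of these ERF genes and for the plant defensin gene PDF1.2A, a textbook target of group IX activators, all in assembly TAIR10.1 and on the gene's own strand. The G-box was in the windows of 6 of the other 16 group IX genes. A match, or its absence from 300 bases, describes the letters only.
ORA59 (chr1:1882665-1882694, plus strand): tgtcgggaatacGCCGCCgtacgtcataca
ERF15 (chr2:13307779-13307808, minus strand): tgtcattttctcGCCGCCtaacgtcactcc
PDF1.2A (chr5:17907843-17907872, minus strand): tcagattaaccaGCCGCCcatgtgaacgat

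The first question was how much AT5G61590 transcript each line holds. In Col at 1 mM KNO3 the 4 replicates held 68.9, 57.7, 46.0 and 40.7 CPM of AT5G61590 (mean 53.3 ± 12.6, SD, n = 4). In Col at 10 mM they held 166, 239, 205 and 181 CPM (mean 198 ± 31.8, SD, n = 4). All 4 libraries at 10 mM were above all 4 at 1 mM. Over the 12 lines other than SALK_015182, the 48 libraries at 1 mM ranged from 20.1 to 68.9 CPM (median 47.6) and the 48 at 10 mM from 87.2 to 239 CPM (median 149). The lowest library at 10 mM was thus above the highest at 1 mM in these 12 lines.

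Most lines were close to each other. At 1 mM the group means of 11 lines ran from 46.1 CPM in SAIL_1207_H04 to 53.4 CPM in SALK_085964C, and no neighbours in this order differed by more than the larger of their SDs. At 10 mM the order was Col, SALK_146141 (174 ± 20.1 CPM, SD, n = 4), SALK_094437C (161 ± 16.5), SALK_100002 (156 ± 19.3), SALK_085964C (151 ± 14.4), GABI_513E07 (148 ± 14.4), SALK_035980 (147 ± 8.4), GABI_868_E02 (143 ± 13.6), SALK_012253 (142 ± 21.1), SAIL_1207_H04 (142 ± 40.9) and SALK_070847C (127 ± 16.4). Neighbours in this order also differed by less than the larger SD, and each pair overlapped.

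The means of GABI_699B09 were below those of the 11 lines at both concentrations. Its 4 libraries held 28.1, 28.5, 20.1 and 28.2 CPM at 1 mM (mean 26.2 ± 4.1, SD) and 94.0, 120, 90.8 and 87.2 CPM at 10 mM (mean 98.0 ± 14.8, SD), which is 49.2% and 49.6% of the Col means. At 1 mM its highest library was below the lowest of the line above it, and at 10 mM its range overlapped those of SALK_070847C and SAIL_1207_H04. Its log2 difference from Col over both concentrations was -1.02 ± 0.12 (SE). In the 10 lines left when SALK_015182 is also set aside, that difference lay between -0.36 ± 0.12 in SALK_070847C and -0.10 ± 0.12 in SALK_146141.

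**Figure D1:**
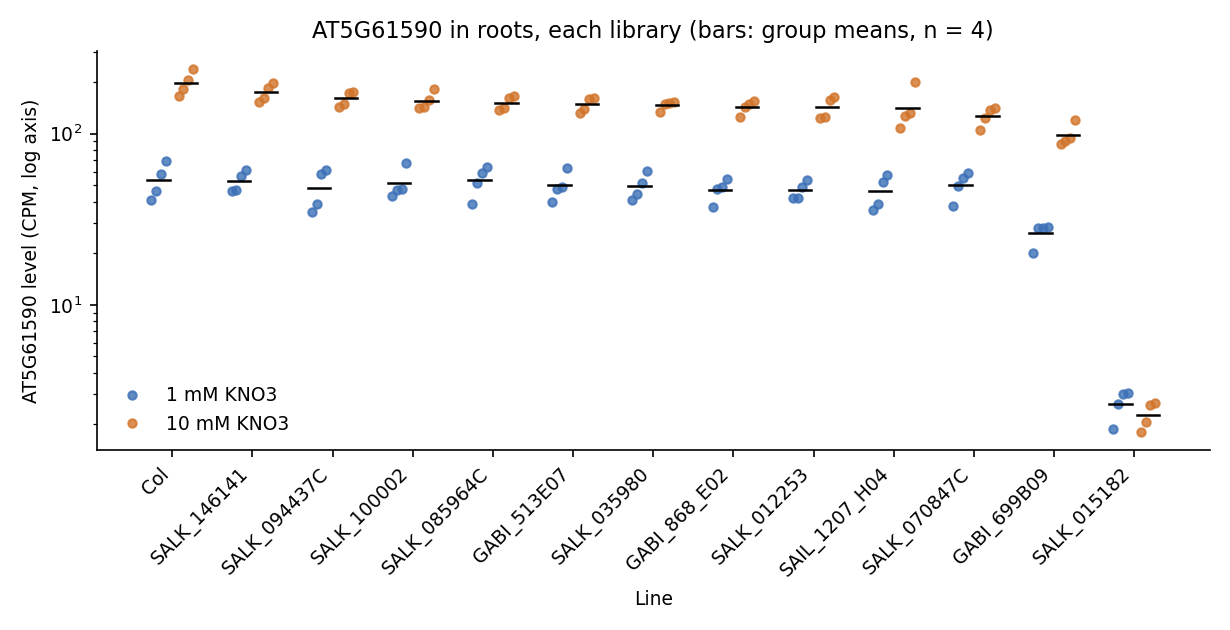
AT5G61590 level in each library (CPM, log axis) for the 13 lines, ordered by their mean at 10 mM; points are the 4 replicates of a group and black bars their mean. In 12 lines the 10 mM points lie above the 1 mM points, GABI_699B09 has the lowest means of these 12, with points at 10 mM that overlap those of SALK_070847C and SAIL_1207_H04, and SALK_015182 lies between 1.8 and 3.06 CPM at both.

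The level of AT5G61590 was higher with more nitrate in every line that had the transcript. Its mean at 10 mM was 2.51 to 3.73 times that at 1 mM in the 12 lines, and in 12 of 12 the 2 groups of 4 libraries did not overlap. The log2 change was 1.89 ± 0.17 (SE) in Col and 1.64 ± 0.05 (SE) over the 12 lines. It ran from 1.33 ± 0.17 in SALK_070847C to 1.90 ± 0.17 in GABI_699B09, so the line with the lower level had a change of the size seen in Col. For reading these values, 64.5% of the 19664 genes passed the threshold (adjusted p under 0.05) for a nitrate response over all lines, 34.1% upward and 30.4% downward.

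Libraries were made in 13 strips of 8, and most strips held 1 concentration. In the 3 strips that held both, the libraries of the 12 lines at 10 mM were above those at 1 mM within each strip. In strip 4 the 2 libraries at 1 mM held 54.6 and 64.3 CPM, and 5 of the 6 at 10 mM ran from 142 to 176 CPM, the other being a SALK_015182 library at 2.06 CPM. In strip 7 the 4 libraries at 1 mM ran from 43.4 to 48.8 CPM and the 4 at 10 mM from 137 to 202 CPM. In strip 10 the 6 libraries at 1 mM ran from 35.8 to 51.7 CPM and the 2 at 10 mM held 125 and 205 CPM. The log2 change in these strips alone, over the 12 lines, was 1.70 ± 0.10 (SE).

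In SALK_015182 almost no AT5G61590 transcript was counted. The 4 libraries held 2.63, 1.87, 3.06 and 2.99 CPM at 1 mM (mean 2.64 ± 0.54, SD, n = 4) and 2.06, 1.80, 2.66 and 2.59 CPM at 10 mM (mean 2.28 ± 0.42, SD, n = 4). These rest on 13 to 27 counts a library, against 375 to 701 in Col at 1 mM and 1364 to 2831 at 10 mM. The means were 4.94% of Col at 1 mM and 1.15% at 10 mM, and no library of another line came near them. The log2 difference from Col was -4.36 ± 0.22 (SE) at 1 mM and -6.42 ± 0.23 (SE) at 10 mM. The rise with nitrate was not seen in this line, where the groups overlapped and the log2 change was -0.17 ± 0.28 (SE).

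The genes around AT5G61590 stayed near their level in Col. PFK4 (AT5G61580), a phosphofructokinase gene on the plus strand, ends 87 bases from the 3′ end of AT5G61590, and the labels used here do not say whether counting used strand. PFK4 held 12.5, 9.30, 13.6 and 9.29 CPM in Col and 11.8, 14.7, 12.1 and 11.5 CPM in SALK_015182 at 1 mM, which overlap. Its log2 difference between the lines over both concentrations was 0.05 ± 0.13 (SE, adjusted p = 0.933). ERF104 (AT5G61600), an ERF of the same group that is known for a role in immune signalling, begins on the other side of AT5G61590 on the same strand. Its difference was 0.14 ± 0.15 (SE, adjusted p = 0.796).

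Of the 5 loci on each side of AT5G61590, 6 passed the filter, and 0 of the 6 passed the threshold in SALK_015182 against Col, where 0.229% of all genes did. Their log2 differences ran from -0.15 in AT5G61540 to 0.14 in ERF104, with AT5G61550 at -0.10, AT5G61560 at -0.06 and AT5G61570 at -0.12. At an unadjusted p under 0.05 the count was also 0. The 4 loci that did not pass were AT5G61605 (1 count in all libraries), AT5G61610 (0 counts), AT5G61620 (148 counts) and AT5G61630 (2 counts).

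**Figure D2:**
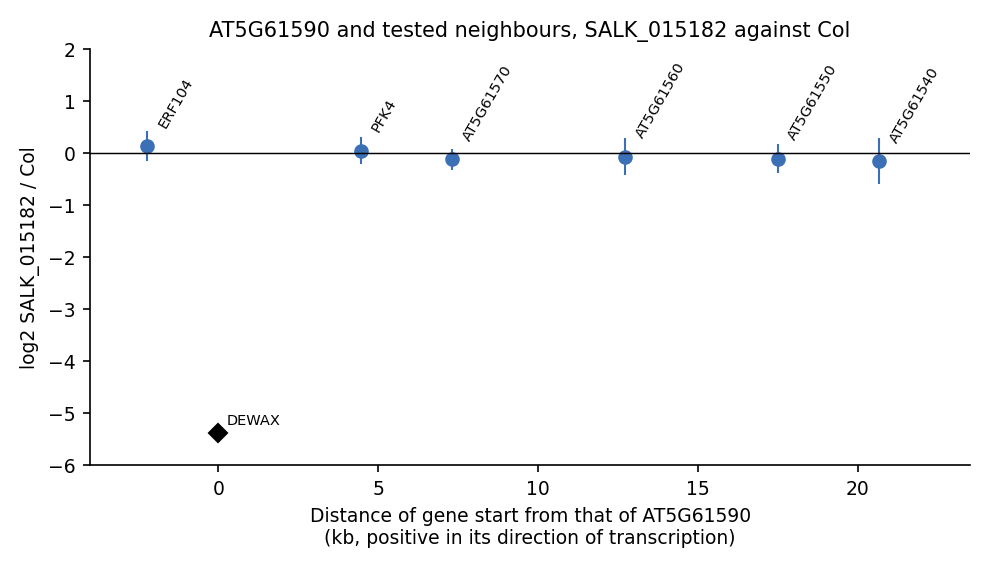
Log2 difference between SALK_015182 and Col over both concentrations for AT5G61590 (diamond, no test) and its 6 tested neighbours (circles with 95% intervals), against the distance of each gene's start from that of AT5G61590 in kb. AT5G61590 lies at -5.39, and the neighbours lie between -0.15 and 0.14.

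Nitrate moved the other genes of ERF group IX mostly the other way. Of the 16 other members, 12 passed the filter; with 10 mM KNO3 over all 13 lines, 8 fell, 1 rose and 3 did not pass the threshold, where 30.4% of all genes fell and 34.1% rose. ERF2, a jasmonate-responsive activator, held 27.6, 39.5, 25.02 and 29.1 CPM in Col at 1 mM and 4.88, 5.74, 5.99 and 4.12 CPM at 10 mM. The groups did not overlap, and over all lines ERF2 fell by 2.61 on the log2 scale (SE 0.07, adjusted p = 5.8e-53). ERF1B, an activator downstream of ethylene, had a log2 change of -1.68 ± 0.11 (SE, adjusted p = 1.34e-25). ERF13 fell by 1.38 (SE 0.16), ERF105 by 1.24 (SE 0.10), ERF5 by 1.22 (SE 0.04), ERF6 by 0.96 (SE 0.06), ERF1A by 0.86 (SE 0.05) and ERF15 by 0.68 (SE 0.08).

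ERF104 was the member that rose, by 0.26 ± 0.06 (SE, log2, adjusted p = 7.48e-05). In the libraries of Col its groups overlapped, with 32.4, 20.7, 19.99 and 13.7 CPM at 1 mM and 21.9, 25.6, 17.1 and 24.2 CPM at 10 mM. ERF106 (0.09 ± 0.06), ERF091 (0.17 ± 0.11) and ORA59 (-0.23 ± 0.13) did not pass. ERF095, ERF096, ERF14 and ERF098 had 6, 86, 65 and 83 counts in all libraries and were not tested. The median log2 change of the 12 tested members was -0.91, beside 0.02 over all genes. With strip as a covariate, 2 of the 12 rose and 7 fell, as ERF106 then passed and ERF13 did not (adjusted p = 0.0593). Leaving out replicate 1 brought ERF106 and ERF091 past the threshold, and leaving out replicate 3 or 4 brought ORA59 past it, while without replicate 1 the estimate for ORA59 was 0.20.

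**Figure D3:**
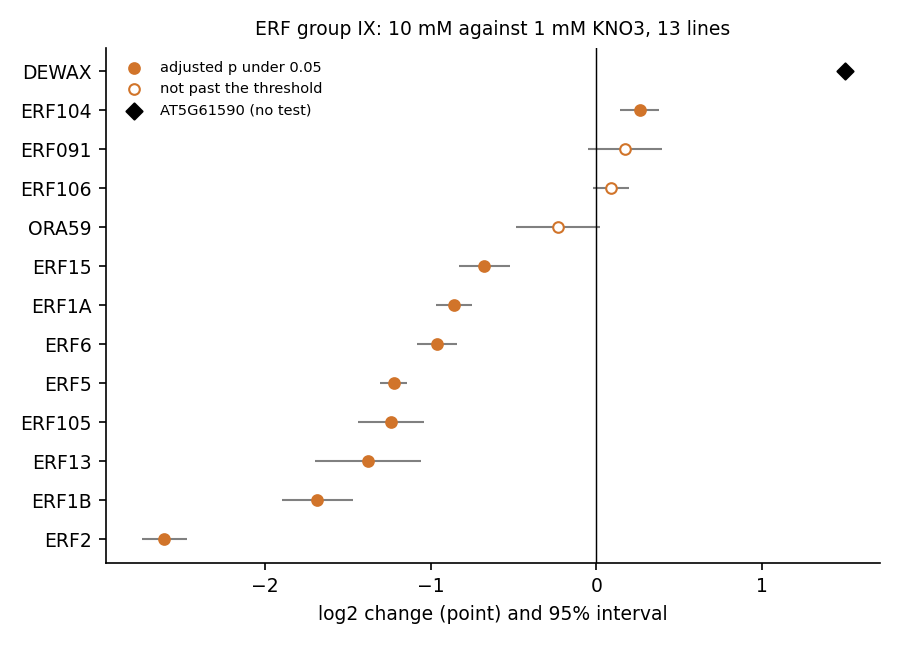
Log2 change from 1 to 10 mM KNO3 over 13 lines for the ERF group IX genes that passed the filter, with 95% intervals; filled circles passed the threshold, open circles did not, and the diamond is AT5G61590, which was not tested. AT5G61590 lies at 1.5 with SALK_015182 included, ERF104 at 0.26, and 8 genes lie at -0.68 or below.

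The reported wax targets of DEWAX that were tested were lower at 10 mM KNO3 over all lines, but the changes were small. LACS2, a long-chain acyl-CoA synthetase of cutin synthesis, held a mean of 34.3 ± 6.03 CPM at 1 mM and 24.4 ± 4.51 CPM at 10 mM (SD, n = 52 libraries each), and fell by 0.50 on the log2 scale (SE 0.05, adjusted p = 5.39e-16). ECR, the enoyl-CoA reductase of fatty acid elongation, fell from 68.4 ± 7.06 to 54.4 ± 6.01 CPM, a log2 change of -0.33 ± 0.03 (SE, adjusted p = 5.47e-16). CER1, needed for wax alkanes, fell from 0.929 ± 0.558 to 0.632 ± 0.267 CPM (log2 change -0.50 ± 0.12, adjusted p = 0.000211), a level of few counts. ACLA2, a subunit of ATP-citrate lyase, fell by 0.14 (SE 0.04, adjusted p = 0.00079). FAR6, a fatty acyl-CoA reductase, had 57 counts in all libraries and was not tested. The libraries of the 2 concentrations overlapped for each of the 4. Libraries of SALK_015182, low in AT5G61590 at both concentrations, are among the 52 at each. In that line ECR held 64.4 to 78.2 CPM at 1 mM and 50.1 to 57.9 CPM at 10 mM. LACS2 held 30.6 to 37.4 and 19.4 to 37.2 CPM there. ACLA2 held 35.7 to 40.0 and 36.0 to 43.5 CPM, and CER1 0.702 to 1.19 and 0.273 to 0.772 CPM.

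The other acyl-lipid genes moved in the same direction as these 4 for the most part. Of 24 other cuticular wax genes, 21 passed the filter, 14 fell and 3 rose, beside 30.4% and 34.1% of all genes. The largest log2 changes were -0.78 ± 0.04 (SE) in KCS2 and -0.47 ± 0.04 in KCS1, which elongate fatty acids, -0.73 ± 0.08 in LACS1 and -0.70 ± 0.08 in LTPG2, a lipid transfer protein. Of 18 suberin and root wax genes, 16 fell and 1 rose, against the same 30.4% and 34.1%, with MYB39, an activator of suberin synthesis, at -1.13 ± 0.09, the fatty acyl reductases FAR4 at -1.02 ± 0.04 and FAR5 at -0.998 ± 0.042, and GPAT7 at -1.01 ± 0.09. Of 9 wax and cutin regulators, 4 passed the filter and 0 passed the threshold with edgeR, with 0 at an unadjusted p under 0.05 (MYB96 -0.07 ± 0.13, MYB94 -0.06 ± 0.14, MYB30 0.02 ± 0.08, ERF106 0.09 ± 0.06).

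Fewer of these genes fell in the edgeR fit with strip as a covariate. Most strips held 1 concentration, so that fit has less information to tell nitrate from strip. In it 19.7% of all genes rose and 18.7% fell. Of the 4 reported targets 2 fell (LACS2 and ECR). CER1 (log2 change -0.51, adjusted p = 0.206) and ACLA2 (-0.03, adjusted p = 0.814) did not pass, the estimate of CER1 being close to that without strip. An effect of strip itself was not tested. Of the 21 other wax genes, 8 then fell and 1 rose, and of the 18 suberin genes 13 fell and 1 rose. Within the 3 strips that held both concentrations, LACS2 changed by -0.45 and ECR by -0.49 on the log2 scale.

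Genes outside wax biosynthesis were read for context. Of 8 dark-inducible genes, a class that DEWAX shares by its reported behaviour in leaves, 7 rose with nitrate and 1 did not pass, where 34.1% of all genes rose. DIN10, a raffinose synthase family gene, changed by 1.59 ± 0.05 (SE, log2), DIN11 by 2.95 ± 0.42, DIN1 by 1.496 ± 0.27 and DIN2 by 1.15 ± 0.28. DIN2 did not pass with strip as a covariate or without replicate 1. Of 9 jasmonate and ethylene defence genes, 5 passed the filter. Among them the vegetative storage protein genes VSP1 (1.2 ± 0.11) and VSP2 (0.94 ± 0.13) rose, and these are near-identical copies whose reads may be split. The chitinase gene PR3 (-0.59 ± 0.07), IGMT1 (-0.44 ± 0.05) and PR4 (-0.28 ± 0.06) fell. Of 20 nitrate uptake and assimilation genes, 14 fell and 4 rose (30.4% and 34.1% of all genes), with NRT2.5 at -5.70 ± 0.24, NRT2.4 at -4.98 ± 0.12, NRT2.2 at -4.80 ± 0.11 and the nitrate reductase gene NIA2 at -2.03 ± 0.04.

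Markers of photosynthetic tissue moved with nitrate as well. The summed level of 13 such markers ranged from 28.4 to 104.2 CPM (median 56.8) over the 52 libraries at 1 mM. It ranged from 61.8 to 230 CPM (median 119) over the 52 at 10 mM. Of the 11 markers tested, 11 rose, beside 34.1% of all genes. No marker was at 0 in all libraries of a concentration, while 1 was in Col at each concentration and 2 were in GABI_699B09 at 1 mM. In GABI_699B09 the sum was 28.4 to 41.2 CPM at 1 mM and 61.8 to 119 CPM at 10 mM, against 54.8 to 57.8 and 92.0 to 172 CPM in Col, so this line was low for these markers at 1 mM as it was for AT5G61590. In SALK_015182 the sum was 49.7 to 74.6 and 108 to 180 CPM. The sum of 11 root markers, with none at 0, ranged from 2601 to 4596 CPM at 1 mM and from 3382 to 6389 CPM at 10 mM. Of these root markers 7 rose and 4 fell, beside 34.1% and 30.4% of all genes. The part of these markers in the level of AT5G61590 was not tested.

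SALK_015182 then gave the comparison in which AT5G61590 was low in both media. None of the reported targets passed the threshold against Col. LACS2 held 35.1, 45.1, 31.5 and 40.9 CPM in Col and 30.6, 35.3, 33.1 and 37.4 CPM in SALK_015182 at 1 mM. At 10 mM it held 24.4, 23.4, 30.4 and 18.2 CPM in Col and 25.7, 19.4, 26.7 and 37.2 CPM in SALK_015182. The lines overlapped at both concentrations, and the log2 difference was 0.01 ± 0.12 (SE), with a 95% interval from -0.23 to 0.24 (adjusted p = 0.994).

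ECR held 73.9, 56.1, 81.6 and 79.5 CPM in Col and 71.7, 67.4, 78.2 and 64.4 CPM in SALK_015182 at 1 mM, again with overlap. Its log2 difference over both concentrations was 0.03 ± 0.08 (SE, interval -0.12 to 0.19, adjusted p = 0.923). ACLA2 differed by 0.10 ± 0.09 (interval -0.08 to 0.29, adjusted p = 0.763). CER1 differed by -0.16 ± 0.31 (interval -0.76 to 0.44, adjusted p = 0.9), at 0.702 to 1.19 CPM in SALK_015182 and 0.731 to 1.56 CPM in Col at 1 mM. The intervals of ACLA2, ECR and LACS2 thus end at 0.29 or below, and that of CER1 is wider.

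The 25 wax genes that passed the filter, 4 reported targets and 21 others, held 0 called genes in SALK_015182 against Col, and over the mean of both concentrations each of the 25 intervals lay within 1 log2 unit of 0. At 1 mM 24 of the 25 did, at 10 mM 22, and for the response difference 19, with upper ends of up to 1.41 at 10 mM and 2.00 for the response difference. The largest difference was in LTPG2, at 0.59 ± 0.20 (SE, adjusted p = 0.224), with 12.5, 9.06, 12.3 and 10.02 CPM in Col and 15.2, 10.76, 17.6 and 12.4 CPM in SALK_015182 at 1 mM. At 10 mM it held 9.19, 6.75, 4.40 and 6.38 CPM in Col and 19.3, 13.6, 9.85 and 5.72 CPM in SALK_015182. The lines overlapped at both concentrations, with log2 differences of 0.35 ± 0.28 (SE, adjusted p = 0.80) at 1 mM and 0.84 ± 0.29 (adjusted p = 0.327) at 10 mM. With strip as a covariate LTPG2 passed (0.67, adjusted p = 0.0424). At an unadjusted p under 0.05, 3 of the 21 other wax genes and 0 of the 4 reported targets were found, beside 2047 of the 19664 genes.

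Over 8 gene lists (wax, suberin, their regulators, group IX, defence, dark-inducible and nitrate genes), 90 of 107 genes passed the filter and 0 of 90 passed the threshold with edgeR in SALK_015182 against Col, where 0.229% of all genes did. At an unadjusted p under 0.05 there were 10 of 90, beside 2047 of all 19664 genes, and the smallest adjusted p was 0.224. The other tests of this line gave 0 of 90 too. These were the comparison with the other 12 lines (0.224% of all genes called), with Col at 1 mM (0.0559%) and at 10 mM (0.132%), and the nitrate response minus that of Col (0.0102%). At an unadjusted p under 0.05 they gave 5, 6, 9 and 12 of the 90, beside 3.91%, 7.69%, 9.31% and 6.58% of all genes. Of the 12 for the response difference, 6 were suberin and root wax genes (18 tested). Another 3 were other cuticular wax genes (21 tested) and 3 were nitrate genes (20 tested). The median response difference of the 18 was 0.27, and the smallest adjusted p among the 90 was 0.610. The DESeq2 Wald test also called 0 of the listed genes in each of these 5 comparisons.

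Among the other group IX genes, the largest differences in SALK_015182 against Col were in ERF13 (0.97 ± 0.43, SE, adjusted p = 0.396) and ERF105 (-0.67 ± 0.26, adjusted p = 0.313). The fold changes of wax genes with nitrate and in this line are set side by side in the plot of wax genes.

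**Figure D4:**
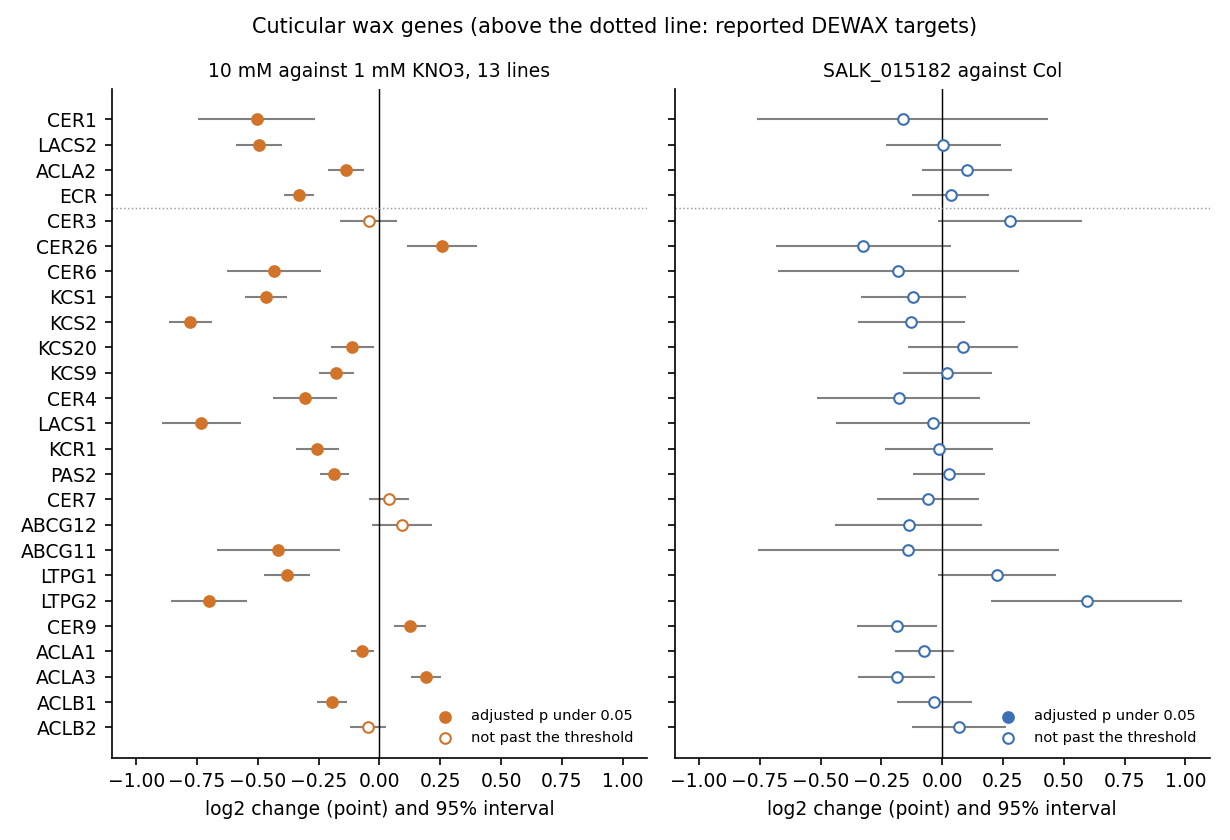
Log2 change with 95% interval for the 25 tested cuticular wax genes, from 1 to 10 mM KNO3 over 13 lines (left) and in SALK_015182 against Col (right); the reported DEWAX targets stand above the dotted line, and filled circles passed the threshold. With nitrate 18 of 25 genes fell and 3 rose, and in SALK_015182 0 of 25 passed.

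Over all genes, the number called in SALK_015182 varied with the fit. Beside AT5G61590, 44 genes passed against Col, 28 lower and 16 higher, and 43 passed against the other 12 lines, 14 lower and 29 higher. With AT5G61590 counted, 0.147% of all genes were lower and 0.0814% higher than in Col, and 0.0763% were lower and 0.147% higher than in the 12 lines. Both lists share 14 genes, all 14 in the same direction, which is 31.8% of the first and 32.6% of the second; SALK_015182 stands in both comparisons. In simulated counts of the comparison with Col, 88% of genes changed by 50% were called and 12% of those changed by 25%. With strip as a covariate the number called, AT5G61590 included, was 252 against Col and 78 against the 12 lines. Leaving out replicate 2 or replicate 3 of all groups lowered the number called against Col from 45, AT5G61590 included, to 11.

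Of the genes that were lower in both comparisons, AT5G11330, annotated as an FAD/NAD(P)-binding oxidoreductase, had 36.0, 29.4, 39.0 and 41.3 CPM in Col and 20.9, 21.4, 20.8 and 18.3 CPM in SALK_015182 at 1 mM. The libraries did not overlap, and the log2 difference was -0.90 ± 0.09 (SE, adjusted p = 9.95e-13). GLIP3 (AT1G53990), a GDSL-motif lipase gene, differed by -1.02 ± 0.17 (adjusted p = 6.86e-05). QQS, an orphan gene known for its effect on starch, differed by -1.63 ± 0.28 (adjusted p = 0.000128). At 1 mM it held 1.253 to 1.73 CPM in Col and 0.554 to 0.891 CPM in SALK_015182, levels of few counts. In GABI_699B09 it held 0.200 to 0.278 CPM at 1 mM. Between SALK_015182 and Col, AT5G35940, annotated as a mannose-binding lectin, differed by -0.90 ± 0.20 (adjusted p = 0.0176). AT4G18205, a nucleotide-sugar transporter family gene, differed by -0.77 ± 0.16 (adjusted p = 0.00657).

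Of the genes that were higher, AT5G35935 had 3.004, 3.46, 2.45 and 2.51 CPM in Col and 11.2, 12.3, 9.42 and 10.31 CPM in SALK_015182 at 1 mM, with a log2 difference of 2.11 ± 0.17 (SE, adjusted p = 2.7e-17). In GABI_699B09 it held 0.185 to 0.426 CPM at 1 mM. AT3G29410 (1.31 ± 0.25), AT3G29430 (1.21 ± 0.28) and AT4G38410 (1.07 ± 0.17) were also higher in SALK_015182 than in Col. Some calls against Col rested on Col alone: AT3G25150 was 1.26 ± 0.12 higher and ARP9 0.75 lower than in Col, but against the other 12 lines they differed by 0.06 ± 0.08 and 0.04 ± 0.09. The reverse held for MRD1, which was 2.48 lower than in the other 12 lines (log2, SE 0.16) and differed from Col by -0.14 ± 0.23. AT5G45095 (0.53 ± 0.09) and AT1G23935 (0.69 ± 0.15) passed against the other 12 lines only among these 2 tests.

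Of the 10 genes named against Col by size, 5 lost the call when 1 replicate number was left out. The highest adjusted p was then 0.604 for AT5G35940, 0.791 for AT4G18205, 0.757 for AT3G29410, 0.791 for AT3G29430 and 0.173 for AT4G38410. QQS, named after its values were seen, lost it without replicate 2 (0.0690) and with run 1 alone (0.158). Against the other 12 lines, 5 of 11 did, among them AT1G23935 (0.241). AT5G11330, AT5G35935, GLIP3, ARP9 and AT3G25150 kept theirs against Col in each of the 12 alternatives run.

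The genes whose level follows that of AT5G61590 were ranked within each concentration over the 48 libraries without SALK_015182, by the weaker of the 2 Pearson correlations of log2 CPM. The 14823 genes with a mean of at least 5 CPM were ranked. These correlations are descriptions: libraries share lines, strips and depth, and the genes were picked for their values. CP12-1, a regulator of the Calvin cycle, came first, with r of 0.70 at 1 mM and 0.73 at 10 mM (rho 0.65 and 0.60). It was followed by PSBR, a subunit of photosystem II (0.81 and 0.68; rho 0.67 and 0.48), and KING1, the gamma subunit of the SNF1-related kinase (0.75 and 0.67; rho 0.58 and 0.45).

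The other 7 were MED10A (0.65 and 0.66; rho 0.35 and 0.45), the ATP sulfurylase gene APS4 (0.65 and 0.71; rho 0.50 and 0.66), AT3G46020 (0.65 and 0.67; rho 0.41 and 0.62), AT5G59530 (0.71 and 0.64; rho 0.33 and 0.43), AT1G12010 (0.76 and 0.64; rho 0.71 and 0.47), PLC9 (0.71 and 0.64; rho 0.48 and 0.51) and AT5G43520 (0.85 and 0.64; rho 0.77 and 0.48). The 5 lowest were AT5G07030, annotated as an aspartyl protease (-0.70 and -0.69; rho -0.74 and -0.62), AT3G48440 (-0.72 and -0.65; rho -0.55 and -0.56), AT3G44716 (-0.63 and -0.63; rho -0.10 and -0.44), AT4G02940 (-0.64 and -0.61; rho -0.58 and -0.52) and AT3G25290 (-0.61 and -0.61; rho -0.58 and -0.58). Over all 14823 genes, 188 had an r of at least 0.5 at both concentrations and 46 had one of -0.5 or below.

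How many genes passed these bounds varied with the libraries and runs used. Without the 2 libraries farthest from the median of AT5G61590 at each concentration, 19 genes reached 0.5 and 6 reached -0.5. With run 1 alone 118 and 51 did, and with run 2 alone 74 and 11. Leaving out 1 replicate number gave 172 to 249 and 47 to 92. GABI_699B09 has the lowest mean AT5G61590 level of the 12 lines ranked. Each of the 10 positive genes was lower in this line than in Col, by log2 differences from -3.84 in AT5G43520 to -0.62 in CP12-1. Each of the 5 negative genes was higher in this line, by 0.40 in AT4G02940 to 2.61 in AT3G44716. The photosynthetic marker sum, low in this line at 1 mM, had r of 0.63 at 1 mM and 0.33 at 10 mM with AT5G61590, and 0.31 and 0.11 without the line; its part in the ranking was not tested. Without that line, an alternative chosen after its level was seen, the highest weaker r was 0.62 (J8) and 12 genes reached 0.5 at both concentrations; 1 of the 10 positive and 2 of the 5 negative genes stayed in the lists. For CP12-1 the r without it was 0.58 at 1 mM and 0.53 at 10 mM, and for PSBR 0.57 and 0.35. For PLC9 it was 0.30 and 0.26, for MED10A 0.16 and 0.36, and for AT3G44716 0.07 and -0.26. Leaving out the 2 farthest libraries gave 0.62 and 0.64 for CP12-1, 0.71 and 0.52 for PSBR, and -0.70 and -0.63 for AT5G07030.

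**Figure D5:**
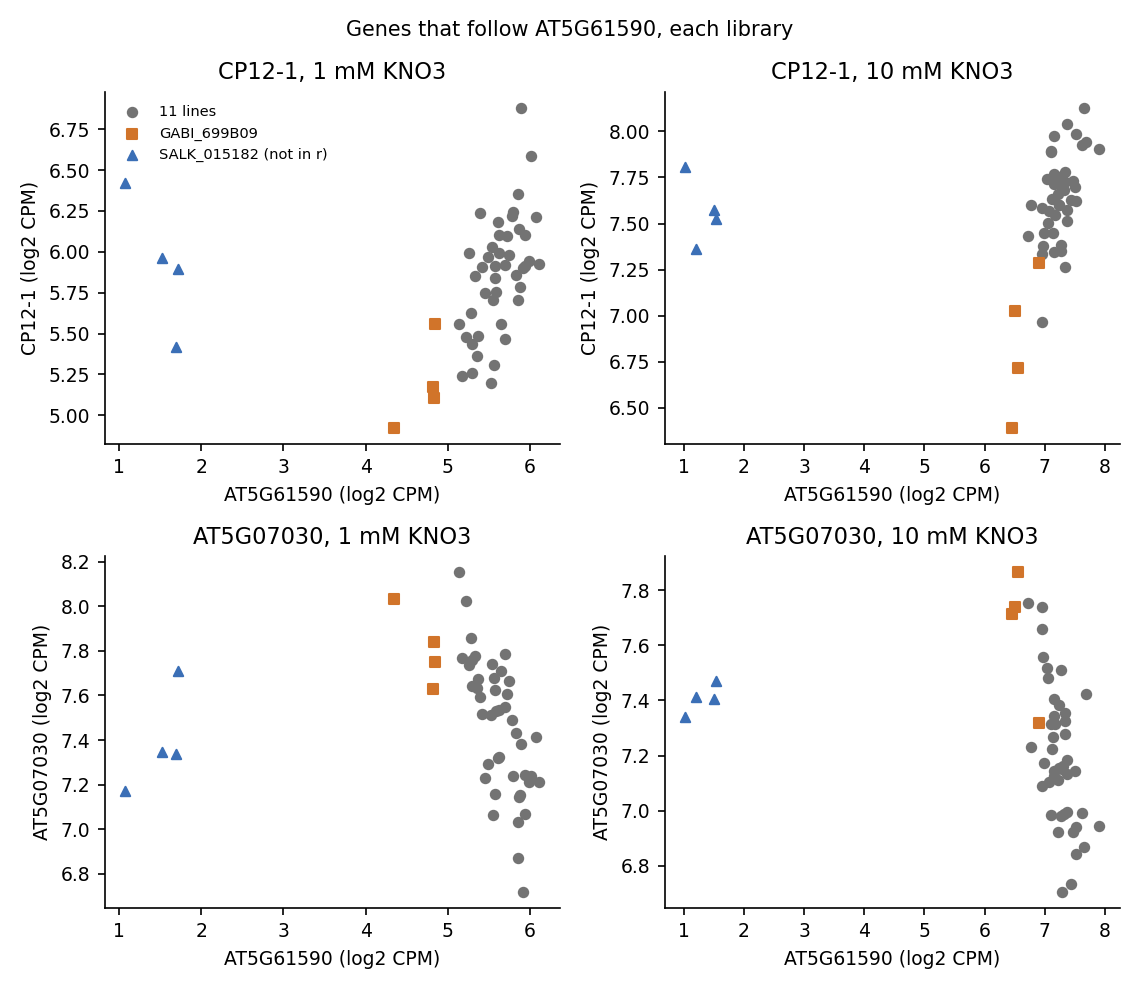
Log2 CPM of CP12-1 (top) and AT5G07030 (bottom) against that of AT5G61590 at 1 mM (left) and 10 mM KNO3 (right), 1 point a library; GABI_699B09 is shown as squares and SALK_015182, which is not part of r, as triangles. Over the other lines and GABI_699B09, CP12-1 goes up and AT5G07030 goes down with AT5G61590, while the SALK_015182 libraries lie at low AT5G61590 within the range of both genes seen elsewhere.

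With the mean of each line removed, which leaves the spread between replicates, CP12-1 was again first (r 0.70 and 0.76; rho 0.74 and 0.78), 9 of the 10 positive genes were replaced, and 41 genes reached 0.5 and 10 reached -0.5. The list then held UMAMIT20, a gene of a transporter family (0.71 and 0.69), AT1G80440, a kelch repeat gene (0.68 and 0.71), AT5G51970, annotated as an alcohol dehydrogenase family gene (0.65 and 0.79), AT1G80380 (0.65 and 0.81), AT3G14260 (0.73 and 0.62), J8, a DnaJ-type chaperone gene (0.70 and 0.61), TPS9, of the trehalose phosphate synthase family (0.61 and 0.69), AT1G19530 (0.77 and 0.60) and GLIP3 (0.69 and 0.60). The 5 lowest were AT5G07030 (-0.70 and -0.65), FLA16 (-0.64 and -0.58), MSR1 (-0.62 and -0.57), AT4G21570 (-0.62 and -0.56) and IDL5 (-0.63 and -0.54). Of these 10 positive genes, 9 rose with nitrate over all lines, beside 34.1% of all genes, and GLIP3 fell by 0.49. Of the 10 positive genes of the first ranking, 7 rose and 1 fell, beside 34.1% and 30.4% of all genes. The 1 that fell was AT5G59530, by 1.35. Removing strip means in place of line means gave -0.01 and 0.18 for AT5G51970, whose r was 0.27 and 0.29 with no means removed. For CP12-1 it gave 0.63 and 0.72, where r was 0.70 and 0.73. It gave 0.08 and 0.24 for AT3G14260, 0.12 and 0.65 for AT1G19530, 0.25 and 0.56 for AT1G80380 and 0.35 and 0.49 for AT1G80440. For TPS9 it gave 0.37 and 0.53, for GLIP3 0.43 and 0.54, for J8 0.51 and 0.58 and for UMAMIT20 0.58 and 0.52. At 1 mM the mean of AT5G61590 in the 12 lines ran from 36.0 CPM in strip 8 to 59.4 CPM in strip 4. The part of strip in this ranking was not tested.

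The followers were then read in SALK_015182. Its libraries took no part in either ranking, but those of Col and the other lines it was compared with did. The differences below are therefore not independent of the rankings. CP12-1 held 60.5, 51.96, 36.4 and 40.9 CPM in Col and 62.0, 85.6, 59.3 and 42.6 CPM in SALK_015182 at 1 mM. At 10 mM it held 183, 240, 246 and 207 CPM in Col and 164, 224, 184 and 191 CPM in SALK_015182. The lines overlapped at both concentrations, and the log2 difference was 0.10 (adjusted p = 0.871). Of the 10 positive genes of the first ranking 0 passed against Col with edgeR, with medians of -0.04 for these 10 and -0.18 for the 10 of the ranking with line means removed. Of the latter 10, 1 passed, GLIP3. Against the other 12 lines 1 of the first 10 passed, where 0.224% of all genes did. This was PLC9, higher by 0.33 (adjusted p = 0.0376), which lost the call in 4 of 12 alternatives. Against Col, PLC9 differed in SALK_015182 by -0.006 ± 0.11 (SE, adjusted p = 0.993). The other 12 lines include GABI_699B09, where PLC9 differed from Col by -3.64 ± 0.15 (SE). The part of that line in the call was not tested.

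GLIP3 held 18.6, 14.2, 12.4 and 11.7 CPM in Col and 12.5, 13.6, 9.04 and 12.4 CPM in SALK_015182 at 1 mM, which overlap. At 10 mM it held 12.6, 12.6, 10.9 and 10.77 CPM in Col and 3.47, 2.77, 3.35 and 3.95 CPM in SALK_015182, which do not. The log2 difference from Col was -0.24 at 1 mM and -1.79 at 10 mM (adjusted p = 1.31e-06). The difference between these, -1.55 ± 0.33 (SE), did not pass the threshold (adjusted p = 0.0708). In GABI_699B09 GLIP3 held 11.8, 8.06, 9.21 and 9.47 CPM at 1 mM and 5.92, 9.41, 6.61 and 4.73 CPM at 10 mM, with a log2 difference from Col of -0.68 ± 0.16 (SE, adjusted p = 0.000882). It was the gene among the 30 entries of both rankings that passed against Col in SALK_015182.

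The reported targets did not stand at the far end of these correlations. With line means removed, r with AT5G61590 was -0.39 and -0.06 for LACS2, -0.03 and 0.33 for ACLA2 and -0.39 and -0.06 for ECR at 1 and 10 mM; CER1 was under 5 CPM and was not ranked. Over the 19 wax genes ranked, r ran from -0.51 to 0.33. Of them 7 were negative and 6 positive at both concentrations, beside 29.97% and 32.48% of all genes ranked. Of the 6 group IX genes ranked, 5 were positive at both and 0 negative at both (32.48% and 29.97% of all genes ranked). ERF106 had 0.61 and 0.35, ERF104 0.53 and 0.41 and ERF5 -0.37 and 0.09. Of 4 dark-inducible genes, 2 were positive and 1 negative at both, beside the same 32.48% and 29.97%. DIN10 had 0.57 and 0.35 and ASN1 -0.57 and -0.21. Of 15 suberin genes, 8 were negative and 5 positive at both, beside 29.97% and 32.48%, with ABCG6 at -0.74 and -0.45. The log2 sum of photosynthetic markers had r of 0.39 and 0.53, and that of root markers -0.64 and -0.24. Log2 library total had r of -0.18 and 0.19 with AT5G61590, before line means were removed.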

How the data were processed

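Roots of 13 lines at 2 KNO3 concentrations were measured in 104 libraries, each sequenced in 2 runs. The deposited values are whole-number read counts per locus and run, with no normalization found in the values. Per the submitters' processing notes, the tools named are HTSeq, Bowtie, limma, SAMtools and FastQC, with build TAIR10; versions, roles and strand setting are not given in the sources used here, so overlapping, antisense and near-identical genes are uncertain. Both runs were summed. Organelle loci (279) have no counts in run 2 and were not used. File names of SALK_035980 and SALK_085964C, replicate 3 at 10 mM, carry each other's line, and the labels were followed. Replicates differed by more than sampling noise in all 156 pairs (lowest chi-square ratio to its degrees of freedom 4.48). Tags have no molecular identifiers, and intervals cover the spread between libraries.

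Counts were fitted in R 4.3.3 with edgeR 4.0.16 (filterByExpr with a minimum count of 10, TMM, a quasi-likelihood F test, 26 group coefficients), with p-values adjusted by Benjamini-Hochberg over 19664 genes, with a threshold of 0.05. SE is the size of the log2 change divided by the square root of F, and 95% intervals are 1.96 SE on each side. DESeq2 1.42.0 was an alternative. Correlations used log2 CPM with a prior count of 2. The test was checked on simulated data. Promoter windows are the 300 bases before each RefSeq gene start in TAIR10.1, used because no promoter table was at hand; the count files hold no coordinates.

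The gene, the gene lists and the naming rule were chosen with earlier results of these data known. Named were the reported targets, tested group IX genes and neighbours, the 4 largest changes of each other list, the 10 highest and 5 lowest correlations, and the 5 largest called rises and falls in SALK_015182 with at least 5 CPM and 1 sign at both concentrations; PR4, the genes ranked with line means removed and others given for context were named after their values were seen. The replicates are pools of 2 plates, and the labels do not say that they were grown apart in time.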

Additional observations from a re-analysis of the deposited data

Results flagged for a closer look

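In 2 of 26 groups, 1 library was flagged as lying apart from its 3 replicates in the level of AT5G61590. Dixon's criterion at the 95% level served only to flag libraries, not as a test of the gene. Chance meets it in about 1 of 20 groups, and 2 of 26 is near that rate. In GABI_699B09 at 1 mM, replicate 3 held 20.1 CPM against 28.1 to 28.5 CPM in the others. In SALK_100002 at 1 mM, replicate 2 held 67.2 CPM against 43.4 to 47.4 CPM.

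AT5G49840, annotated as a Clp protease ATP-binding gene, was the gene beside AT5G61590 whose nitrate response in SALK_015182 differed from that in Col (log2 difference -0.97 ± 0.19, SE, edgeR adjusted p = 0.0207). It rose from 12.1 ± 1.21 to 22.1 ± 1.83 CPM in Col and held 18.1 ± 1.31 and 16.9 ± 3.72 CPM in SALK_015182 (SD, n = 4). The call was lost in 6 of 12 alternatives (without replicate 2, 3 or 4, with run 1 or run 2 alone and with no filter on low counts), with an adjusted p of up to 0.9999, while the difference stayed between -1.26 and -0.68. Over the 12 lines other than SALK_015182 its means were 17.2 ± 2.96 and 19.2 ± 2.57 CPM (SD, n = 48).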

How the results depend on the processing

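The log2 change of AT5G61590 with nitrate over 12 lines stayed between 1.57 and 1.73 in 13 alternatives, and its group levels moved by less than 1 SD of the replicates in all but 1 case (SALK_035980 at 1 mM with run 1 alone, 40.3 CPM). Listed genes called for nitrate ranged from 55 to 78 (76 as reported), and in SALK_015182 from 0 to 1, the 1 being LTPG2 with strip as a covariate.

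Counts over all genes moved more. With strip as a covariate they were 7563 for nitrate, and in SALK_015182 252 against Col, 78 against 12 lines, 159 at 1 mM, 55 at 10 mM and 9 for the response difference, against 12675, 45, 44, 11, 26 and 2 as reported. The 3 strips with both concentrations gave 6568 for nitrate. Run 1 alone gave 22 against Col, 12 against 12 lines, 4 at 1 mM, 5 at 10 mM and 0 for the response difference, and run 2 alone 16, 29, 5, 22 and 1. Without a filter the response difference gave 1. The DESeq2 Wald test gave 40 at 10 mM and 4 for the response difference.

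Leaving out 1 replicate number gave 11 to 41 against Col, 26 to 32 against 12 lines, 5 to 11 at 1 mM, 7 to 27 at 10 mM and 0 to 2 for the response difference; the lowest came without replicates 2 or 3 (Col), 1 (12 lines), 2 or 4 (1 mM), 2 (10 mM) and 4 (response difference). The cause of these moves was not tested.

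With a replicate block the counts were 62 against Col, 61 against 12 lines, 41 at 10 mM and 4 for the response difference. Replicate numbers are in the labels, but nothing says that they pair samples: deviations of same-numbered Col and SALK_015182 libraries correlated at -0.06 to 0.31 in 8 pairs (3 over 0.1), and those of the concentrations at -0.26 to 0.17 in 52 pairs.

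PFK4, a neighbour that rose with nitrate (0.14), had -0.0875 with run 1 alone. Of 82 named genes called for nitrate, 24 lost the call in at least 1 alternative. In SALK_015182 5 of 10 did against Col and 8 of 11 against 12 lines, PLC9 among them.

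The highest weaker r was 0.62 to 0.73 over the correlation alternatives. With SALK_015182 included, 1 gene reached 0.5 at both concentrations.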
